A study of Mus musculus with 2 samples.

Results

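Mature regulatory dendritic cells are antigen-presenting cells that have left the feeding stage, display peptides and co-stimulatory ligands, and also carry molecules that restrain T cells. Here they were selected on measured values: a barcode was taken as a member where at least 3 of the 7 genes Ccr7, Fscn1, Ccl22, Cacnb3, Il4i1, Il12b and Mreg had a UMI (a unique molecular identifier, 1 captured RNA molecule) and Cd3d, Cd3e and Ncr1 had none. Cells were barcodes of 1000 UMIs and 400 genes or more whose mitochondrial UMIs made up no more than 10%, and 295 of these 11573 cells were members. The cells came from MC38 tumours, a mouse colon carcinoma line, implanted in C57BL/6 female mice, which received either the vehicle or LC427, a compound known here by its code name, and whose tumours were taken on day 14. CD45+ cells, that is leucocytes, were collected on magnetic beads after removal of dead cells, and 5′ single-cell libraries were made from them. There was 1 library for each treatment, so no difference between the treatments could be tested. The sources used here give no dose, schedule, age or number of mice for a library. The series names LRBA, a protein that keeps the checkpoint receptor CTLA4 from being degraded, as the target of the treatment.

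As background, conventional dendritic cells of the cDC1 and cDC2 kinds take up material in tissues, and on maturation switch on CCR7, the receptor that guides them along CCL19 and CCL21 to lymph nodes. NF-kB signalling, in particular its RelB arm, drives much of that programme. In tumours the same state pairs ligands such as CD80 and CD86 with PD-L1, CD200 and the chemokines CCL17 and CCL22, which attract T cells bearing CCR4, regulatory T cells among them. CTLA4 on regulatory T cells strips CD80 and CD86 from the surface of such cells; the libraries counted RNA and do not read surface protein.

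The vehicle library held 151 members among 5245 cells, or 2.88% (exact 95% interval 2.44 to 3.37), and the LC427 library held 144 among 6328, or 2.28% (1.92 to 2.67). The ratio of the shares, LC427 to vehicle, was 0.79 (95% interval 0.625 to 0.9998). All such intervals cover counting error only, and with 1 library a group the spread between mice is unknown. When the members that went against their label, described in the next paragraph, were left out, the ratio was 0.812 (0.640 to 1.03). The members held 827576 UMIs in vehicle, with a median of 3734 UMIs and 1312 genes per cell, and 456752 UMIs in LC427, with a median of 2433.5 UMIs and 1011.5 genes. All cells of each library differed in depth in the same direction, with medians of 3560 and 2424.5 UMIs. The libraries held 49 cell barcodes in common, and none of them was a member.

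The label was checked on genes that the rule did not use. Cst3, which encodes the protease inhibitor cystatin C and is abundant in dendritic cells, had a median over cells of 571 CPM (UMIs of the gene per 1000000 UMIs of the cell) in the 60 vehicle cells with 2 of the 7 genes, just outside the rule. It stood at 6082 CPM in the 21 cells with 3 genes, just inside it, and at 22841 CPM in the 51 cells with 6 or 7. In LC427 the same values were 502, 12869 and 17197 CPM, over 61, 25 and 43 cells. The pooled level, from UMIs summed over cells, did not show this step in vehicle: it was 2234 CPM at 2 genes and 2182 CPM at 3, and the mean over cells was 5057 and 5768 CPM. In LC427 the pooled level was 1115 CPM at 2 genes and 7447 CPM at 3. The cells just outside were also deep, with medians of 16508 and 8237 UMIs. Their median level of Tm4sf1, a membrane protein gene of the tumour marker list, was 112 and 226 CPM, and that of Ptprc was 0. Cells with 0 of the 7 genes had a higher median Cst3, 1216 and 1102 CPM. Cst3 is shared with conventional dendritic cells, so it does not check maturity. In the 21 vehicle cells with 3 genes the medians of Cd83, Samsn1 and Traf1, described below, were 0. In the 25 LC427 cells they were 829, 974 and 0 CPM. Ptprc, which encodes CD45 itself, had a UMI in 72 of 151 and 64 of 144 members. A few members did not bear out the label: 5 vehicle barcodes of 17050 to 36464 UMIs and 1 LC427 barcode of 32448 UMIs had no Ptprc and no Ccr7 UMI, all passed with just 3 genes, and each carried between 1 and 82 UMIs of the tumour-cell markers. They held 16.7% of the members' UMIs in vehicle and 7.10% in LC427. Their pooled Cst3 level was 340 and 308 CPM, and their pooled Tm4sf1 level was 657 and 555 CPM. Values without these 6 deep barcodes are given beside part of the results. The other results count all members, and their ratios can move when the 6 are left out.

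**Figure D1:**
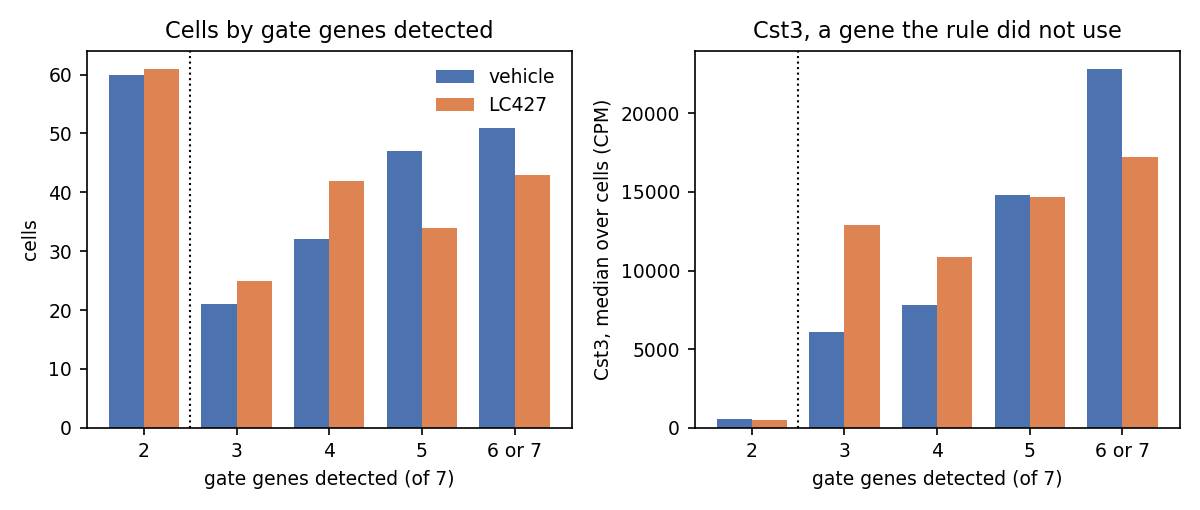
Cells with no T or NK cell UMI by how many of the 7 selecting genes were detected (left, number of cells) and the median Cst3 level of those cells in CPM (right), blue for vehicle and orange for LC427, with the dotted line at the limit of the rule. Cst3 was at 502 to 571 CPM at 2 genes and at 6082 CPM or more from 3 genes on in both libraries.

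The 7 selecting genes are given as a description, since they chose the cells. Levels are CPM of the UMIs summed over the members of a library. Ccr7 (chr11:99144196-99155077 in the GRCm38 build) stood at 1937 CPM in the vehicle library and 2371 CPM in the LC427 library. Ccl22 (chr8:94745590-94751699), the chemokine read by CCR4, stood at 2090.4 CPM in the vehicle library and 2362 CPM in the LC427 library, and Fscn1 (chr5:142960343-142973185), which encodes the actin bundler fascin of dendritic protrusions, at 1266 CPM in the vehicle library and 996 CPM in the LC427 library. These 3 were found in most members: with every cell thinned to 1000 UMIs, Ccr7 was detected in 80.8% of vehicle members (95% interval 73.6 to 86.7) and 90.3% of LC427 members (95% interval 84.2 to 94.6), Ccl22 in 68.9% and 67.4% and Fscn1 in 66.9% and 54.9%. The macrophage gate took cells with at least 4 of 10 macrophage genes, under 3 selecting genes and no Cd3d, Cd3e or Ncr1 UMI. Cells of the conventional DC gate, described below, were left out of it. Thinned Ccr7 was found in 0.168% and 0.175% of macrophage gate cells, taken here as the background share. For the selecting genes that background is partly set by the limit on them, so it is a description. Cacnb3, a calcium channel subunit, stood at 615 CPM in the vehicle library and 571 CPM in the LC427 library. Il4i1, an amino acid oxidase that restrains T cells, stood at 267 CPM in the vehicle library and 438 CPM in the LC427 library, and Mreg, melanoregulin, at 145 CPM in the vehicle library and 171 CPM in the LC427 library. Il12b, the p40 subunit of interleukin-12, stood at 547 CPM in the vehicle library and 499 CPM in the LC427 library and was detected in 29.8% and 20.8% of thinned members against 0% and 0.0349% of thinned macrophage gate cells. In the authors' deposited table, all 7 genes had their highest mean in a single cluster of each library, cluster 12 of vehicle and cluster 7 of LC427, and Cst3, Ccl5, Ccl17 and Flt3 were highest in the same clusters.

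Outside the selecting genes, the 15 genes by which the members stood furthest above the other cells were ranked by the smaller of the 2 libraries' ratios to all other cells. Tbc1d4 (chr14:101442360-101609191), a Rab GTPase activator that governs vesicle traffic, stood at 911 CPM in the vehicle library and 1145 CPM in the LC427 library in members and at 14.9 and 19.5 CPM in all other cells. Ramp3, which alters the ligand choice of calcitonin-family receptors, stood at 421 CPM in the vehicle library and 565 CPM in the LC427 library, or 46.7 and 50.2 times the other cells. Mmp25, a membrane-anchored matrix protease, stood at 392 CPM in the vehicle library and 398 CPM in the LC427 library, or 51.2 and 32.6 times. The antisense transcript Gm13546 (chr2:58164001-58177063) led the ranking at 216 and 221 times, with 189 CPM in the vehicle library and 158 CPM in the LC427 library; the sources used here do not say whether reads were counted by strand. Sema7a, a semaphorin that signals through integrins, was 20.3 and 34.6 times higher in members. Ly75, the endocytic receptor DEC-205, was 23.5 and 21.7 times higher, and Flt3, the receptor for the growth factor on which dendritic cells depend, 31.8 and 19.7 times. The others of the 15 were Bcl2l14, Slc27a3, Adcy6, Cd200, Tmtc2, Rogdi, Tbc1d8 and Ccl17. For these 15 genes the level in the members was close between the libraries, with ratios between 0.836 and 1.36, apart from Cd200 and Ccl17. The ranking asked for a high level in both libraries, so this closeness is partly set by the choice.

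Promoters of these genes were searched for the NF-kB consensus, a motif of 10 bases read on both strands, since NF-kB drives the mature state. The windows run from 250 bases before to 50 after the annotated start, from RefSeq on GRCm38.p6. The motif was in 8.46% of 32851 promoters, in none of the 8 promoters of the 6 selecting genes with an entry, and in those of 2 of the 14 matched genes that stood apart from other cells. Those 2 promoters are printed with the matches in capitals, because the genes were 46.7 and 51.2 times higher in vehicle members than in other cells. Ramp3 lies on the plus strand, chr11:6658283-6658582, with its match 51 to 42 bases before the start. Mmp25 lies on the minus strand, chr17:23645220-23645519, with matches 88 to 79 and 51 to 42 bases before the start. A match is a description of the letters and not evidence of binding.
Ramp3: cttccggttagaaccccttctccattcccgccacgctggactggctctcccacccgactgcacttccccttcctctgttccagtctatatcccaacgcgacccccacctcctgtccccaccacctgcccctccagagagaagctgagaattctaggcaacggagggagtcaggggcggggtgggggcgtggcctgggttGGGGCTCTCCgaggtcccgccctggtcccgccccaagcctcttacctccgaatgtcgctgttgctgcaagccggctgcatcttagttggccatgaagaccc
Mmp25: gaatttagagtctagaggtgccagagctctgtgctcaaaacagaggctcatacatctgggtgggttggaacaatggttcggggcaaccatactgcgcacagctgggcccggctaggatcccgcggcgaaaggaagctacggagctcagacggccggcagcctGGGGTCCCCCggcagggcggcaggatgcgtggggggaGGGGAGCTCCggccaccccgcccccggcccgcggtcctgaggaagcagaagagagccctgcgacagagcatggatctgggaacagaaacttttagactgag

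Set against the conventional DC gate, the 148 vehicle and 175 LC427 cells with at least 3 of 13 conventional dendritic cell genes and under 3 selecting genes, the members were higher in maturation and NF-kB genes. Of 8877 genes with enough UMIs, 549, or 6.18%, were at least 2-fold higher in members in both libraries, and 660, or 7.43%, at least 2-fold lower. Of the co-stimulation and maturation list, 9 of 11 measured genes were higher and none lower. Cd83, a surface mark of mature dendritic cells, stood at 680.3 CPM in the vehicle library and 876 CPM in the LC427 library, against 263 and 201 CPM in the conventional DC gate and 173 and 116 CPM in the macrophage gate. Cd80, a ligand of CD28 and CTLA4, stood at 114 CPM in the vehicle library and 151 CPM in the LC427 library, against 25.5 and 21.1 CPM in conventional dendritic cells. Cd86, the other ligand, did not reach 2-fold, at 152 CPM in the vehicle library and 193 CPM in the LC427 library against 83.8 and 111 CPM. Of the NF-kB list, 11 of 20 genes were higher: Relb stood at 243 CPM in the vehicle library and 261 CPM in the LC427 library against 31.9 and 32.8 CPM, and Traf1, an adaptor of TNF receptors, at 388 CPM in the vehicle library and 436 CPM in the LC427 library against 70.1 and 66.7 CPM. Of the migration list, 10 of 19 were higher and 1 was lower, the GTPase gene Rac2, at 0.322 and 0.365 times the conventional DC gate. The higher ones included Samsn1, a signalling adaptor (743 CPM in the vehicle library and 1057 CPM in the LC427 library, against 57.4 and 58.5 CPM). Of the regulatory list 6 of 13 were higher and 2 lower: Cd274, which encodes PD-L1, stood at 227 CPM in the vehicle library and 322 CPM in the LC427 library against 103 and 79.6 CPM, and Socs2, an inhibitor of cytokine signalling, at 263 CPM in the vehicle library and 247 CPM in the LC427 library against 21.9 and 17.6 CPM.

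MHC class II, interferon gamma and chemokine genes were more often lower than higher in members, and class I genes were not. Of the MHC class I list, 4 of 20 genes were at least 2-fold higher in members and none lower, where 6.18% and 7.43% of all genes were. Of the MHC class II list, 5 of 13 genes were lower by that fold and 1 higher: H2-Ab1 stood at 1485 CPM in the vehicle library and 2115 CPM in the LC427 library, against 5526 and 6239 CPM in the conventional DC gate. Ciita, the master activator of class II genes, stood at 21.8 CPM in the vehicle library and 28.5 CPM in the LC427 library against 90.2 and 167 CPM. Of the interferon gamma list 6 of 19 were lower and 1 higher, and of the chemokine list 7 of 12 were lower and 2, Ccl5 and Ccl17, higher. The cDC1 and cDC2 genes were lower too (7 of 8 and 4 of 8), but several of them chose the comparison gate, so nothing is read from these counts. Of 16 macrophage markers, 11 were lower in members than in that gate and none higher. Their summed level in members was 3219 CPM in vehicle and 2568 CPM in LC427, against 22695 and 16745 CPM in the macrophage gate, with at least 1 UMI in 107 of 151 and 97 of 144 members. Whether free RNA or attached macrophages supply it was not tested.

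**Figure D2:**
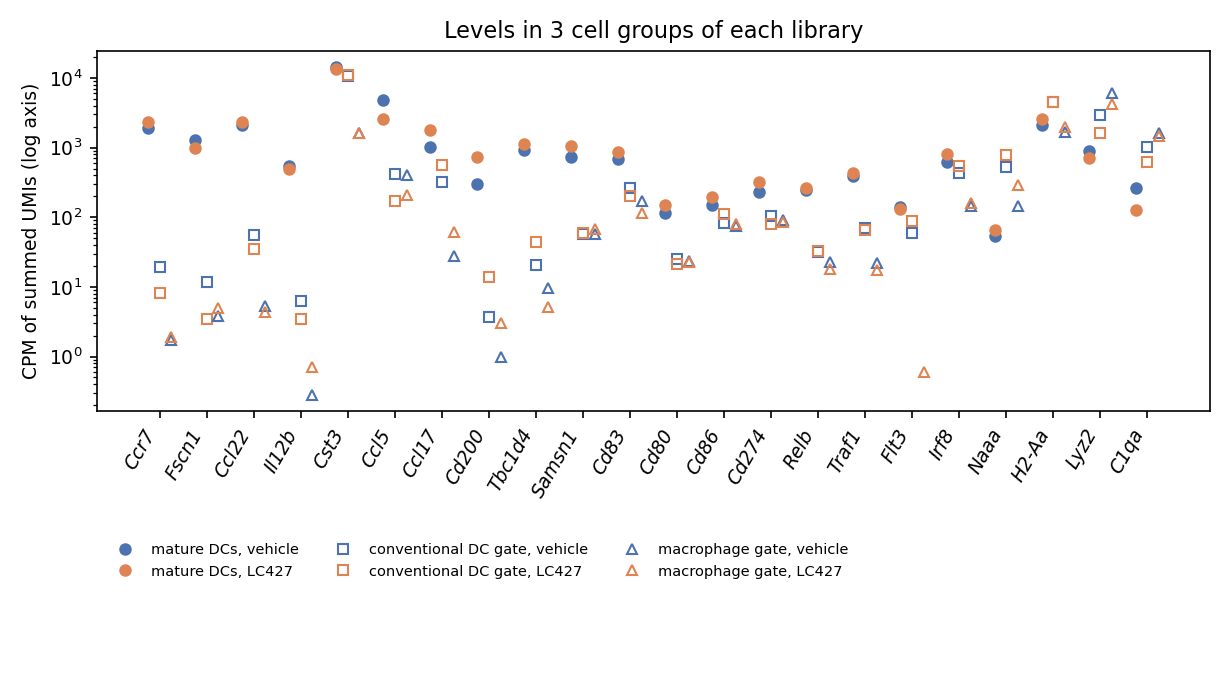
CPM of UMIs summed over the members (filled circles), the conventional DC gate (open squares) and the macrophage gate (open triangles) of each library, blue for vehicle and orange for LC427, on a log axis. The first 4 genes were used to select the members; Tbc1d4, Cd200, Samsn1 and Traf1 were not, and lie above both comparison gates, while C1qa and Lyz2 lie below them. A gene with no UMI in a gate has no symbol there.

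The members differed among themselves in how evenly they held single products. The top 16 of 151 vehicle cells held 76.2% of the Il12b UMIs and the top 15 of 144 LC427 cells held 75.4%. For Ccl17 these shares were 74.4% and 66.1%, and for Ccr7 28.4% and 25.4%. Not every secreted product was held so unevenly: the shares were 42.4% and 58.4% for Ccl5 and 42.2% and 41.5% for Ccl22, against 55.9% and 42.6% for Cd74 and 54.7% and 39.2% for H2-Aa. Il12b, Ccr7 and Ccl22 chose the cells, and the share also moves with the number of UMIs, so these values are a description. A single vehicle cell carried 86 of the 453 Il12b UMIs. With the 6 deep barcodes set aside, members were split by whether they held a UMI of 8 cDC1 genes or of 7 cDC2 genes. Cells with cDC1 genes alone were few, 7 in vehicle and 11 in LC427. Cells with cDC2 genes alone numbered 51 and 41, those with both 22 and 23, and those with neither 66 and 68. The cells with neither were the shallower ones, with medians of 2777 and 1889 UMIs, and those with both the deepest, at 7773 and 4058. Summed Il12b was highest in the cells with cDC1 genes alone, at 4388 and 2146 CPM, against 382 and 365 CPM in those with cDC2 genes alone, but 1 cell held 86 of 133 of those UMIs in vehicle and 34 of 67 in LC427.

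**Figure D3:**
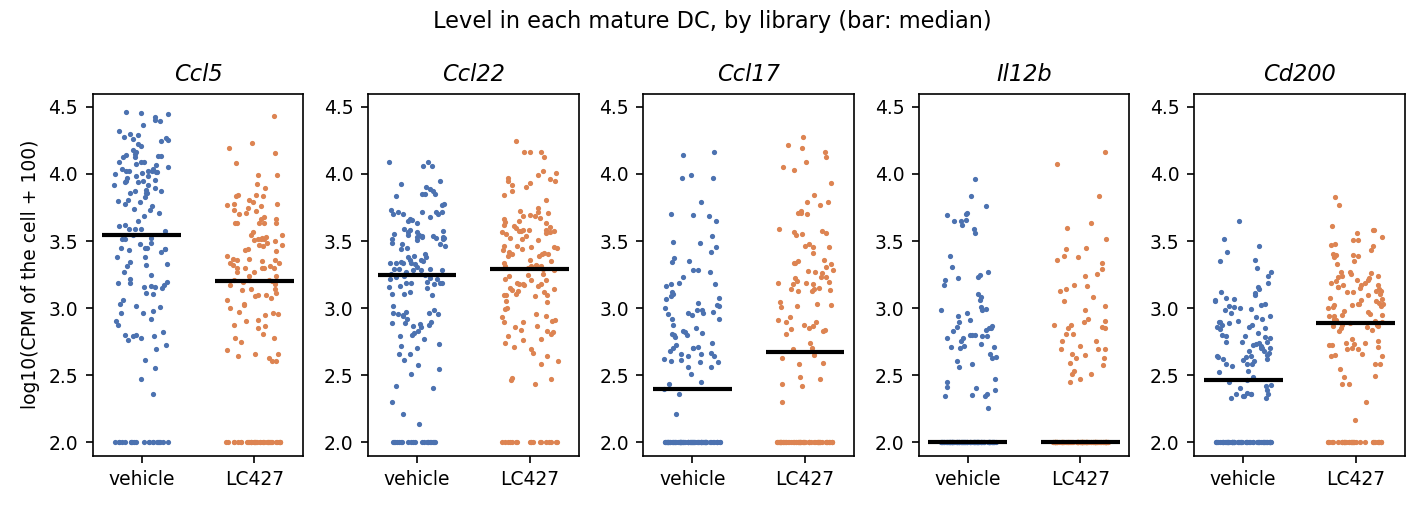
Level of 5 secreted or surface products in each member, as log10 of the cell's CPM plus 100, by library; each point is 1 cell and the bar is the median over cells. The Il12b bar sits at the value of a cell with no UMI in both libraries, and the Cd200 bar is higher in LC427.

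Between the libraries, 5971 genes had at least 20 UMIs over the members. Of these 739, or 12.4%, were at least 1.5-fold higher in LC427 and 1074, or 18%, at least 1.5-fold lower, and the median log2 ratio was -0.05. The lower side depended on the 6 deep barcodes: without them 681 of 5202 genes were higher and 688 lower. Of the 739 higher genes, 610 (82.5%) had a ratio above 1 in all other cells, against 65.1% of all measured genes. Of the 1074 lower genes, 554 (51.6%) had a ratio below 1 there, against 34.9% of all. Across 5965 genes, which share the libraries and their depth and are not independent, the log2 ratio in members and in all other cells had a Spearman rho of 0.31. The ratio in all other cells is given beside most of the genes that follow.

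Among the genes higher in LC427 was Cd200 (chr16:45382135-45409053), whose product restrains myeloid cells through the receptor CD200R. It stood at 297 CPM in the vehicle library and 722 CPM in the LC427 library, a ratio of 2.43 (95% interval 2.05 to 2.88). It was detected in 27.8% of vehicle members (95% interval 20.8 to 35.7) and 52.8% of LC427 members (95% interval 44.3 to 61.1) after thinning to 1000 UMIs, in 59.6% and 72.9% without thinning, and in 0.168% and 0.419% of thinned macrophage gate cells. The ratio in all other cells was 1.85, where the levels were 7.53 and 13.9 CPM. In the conventional DC gate it was 3.86, on 16 UMIs in all, and in the macrophage gate 3.10, on 44 UMIs. Ccl17 (chr8:94810453-94812036), the chemokine read by CCR4 like Ccl22, stood at 1005 CPM in the vehicle library and 1819 CPM in the LC427 library, a ratio of 1.81 (95% interval 1.64 to 1.99) beside 1.72 in all other cells. Nol7, a nucleolar protein gene, stood at 197 CPM in the vehicle library and 429 CPM in the LC427 library, a ratio of 2.18 (95% interval 1.76 to 2.7) beside 1.89. All 3 genes were higher in LC427 both inside and outside the members.

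Other genes differed less in the rest of the library. Mkrn1, a ubiquitin ligase, stood at 108 CPM in the vehicle library and 337 CPM in the LC427 library, a ratio of 3.14 (95% interval 2.4 to 4.12) beside 1.16 in all other cells, and was detected in 11.3% of vehicle members (95% interval 6.7 to 17.4) and 34.7% of LC427 members (95% interval 27 to 43.1) after thinning. Arap2, a regulator of small GTPases, stood at 96.7 CPM in the vehicle library and 229.9 CPM in the LC427 library, 2.38 (95% interval 1.76 to 3.22) beside 1.07. Dapk1, a kinase of cell death pathways, stood at 21.8 CPM in the vehicle library and 98.5 CPM in the LC427 library, 4.53 (95% interval 2.57 to 8.31) beside 1.37. These 3 genes were higher in LC427 members, with ratios near 1 in the other cells for Mkrn1 and Arap2. Pdcd4, an inhibitor of translation, stood at 37.5 CPM in the vehicle library and 142 CPM in the LC427 library, 3.8 (95% interval 2.44 to 6.03) beside 1.78, and Slfn5, an interferon-inducible gene, at 43.5 CPM in the vehicle library and 147 CPM in the LC427 library, 3.37 (95% interval 2.22 to 5.21) beside 1.89. Kynu, which encodes kynureninase of tryptophan breakdown, was low, at 14.5 CPM in the vehicle library and 52.5 CPM in the LC427 library, 3.62 (95% interval 1.74 to 7.95) beside 1.71. Ifitm1, which was lower in all other cells (0.778), stood at 272 CPM in the vehicle library and 552 CPM in the LC427 library, 2.03 (95% interval 1.69 to 2.44). The deep barcodes held 43.6% of its vehicle UMIs, and its ratio without them was 2.71. The palmitoyltransferase Zdhhc23 and the adhesion receptor Adgrg6 had ratios of 4.63 and 2.37 beside 1.73 and 1.44. Several of these genes were also higher in the conventional DC gate. The ratios there were 2.63 for Pdcd4, 1.75 for Dapk1, 1.71 for Zdhhc23, 1.5 for Slfn5, 1.42 for Arap2 and 1.37 for Mkrn1. Kynu had 1.29 there, Ifitm1 1.03 and Adgrg6 0.428, the last on 8 UMIs. The 12 genes of this and the preceding paragraph ranked first, by the interval bound nearest to 1, of 245 that met the naming limits.

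**Figure D4:**
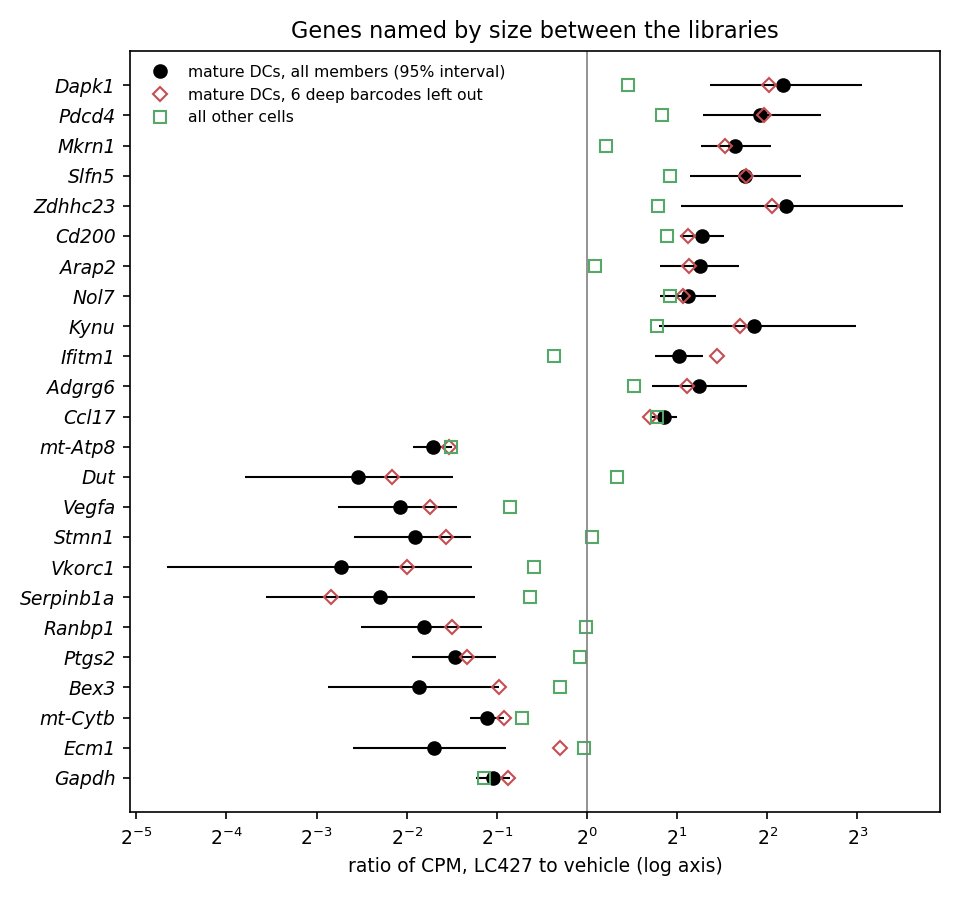
Ratio of CPM, LC427 to vehicle, for the 12 genes ranked highest on each side, on a log axis: filled circles with 95% counting intervals for all members, open diamonds without the 6 deep barcodes, open squares for all other cells of the libraries. The squares of Nol7, Ccl17, mt-Atp8 and Gapdh lie near the members' values, and that of Ecm1 near its diamond.

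Among the genes lower in LC427, Serpinb1a (chr13:32842092-32851185), an inhibitor of neutrophil proteases, kept a low ratio without the deep barcodes. It stood at 85.8 CPM in the vehicle library and 17.5 CPM in the LC427 library, a ratio of 0.204 (95% interval 0.0849 to 0.425), and 0.139 without them, beside 0.643 in all other cells. Its UMIs came from 27 vehicle and 6 LC427 members. Ptgs2, the inducible cyclooxygenase, stood at 289 CPM in the vehicle library and 105 CPM in the LC427 library, 0.364 (95% interval 0.261 to 0.498), and 0.399 without the deep barcodes, beside 0.946. Vegfa, the angiogenic growth factor, stood at 211 CPM in the vehicle library and 50.4 CPM in the LC427 library, 0.238 (95% interval 0.147 to 0.369) beside 0.555, with 50.3% of its vehicle UMIs in the deep barcodes and a ratio of 0.299 without them. Lower values of the mitochondrial transcripts mt-Atp8 and mt-Cytb and of the glycolytic gene Gapdh were shared with the other cells: their ratios were 0.306, 0.464 and 0.487 in members beside 0.353, 0.608 and 0.452. Dut and Stmn1, genes of dividing cells, had ratios of 0.173 and 0.267 with 65.5% and 67.5% of their vehicle UMIs in the deep barcodes, and 0.224 and 0.337 without them, beside 1.26 and 1.04. Ecm1, a secreted matrix protein, had 79.5% of its vehicle UMIs there and went from 0.309 to 0.812 beside 0.982, and Bex3 went from 0.275 to 0.508 beside 0.812. Ranbp1, a cofactor of nuclear transport, had a ratio of 0.285 and 0.355 without them, beside 0.991. Vkorc1, the vitamin K reductase, rested on 48 and 4 UMIs, and went from 0.151 to 0.25 beside 0.665. Some of these genes were also lower in the conventional DC gate: the ratios there were 0.332 for Vegfa, 0.449 for Bex3, 0.503 for Vkorc1 and 0.643 for Ranbp1. Serpinb1a had 0.129 there, on 11 UMIs. Ptgs2, Dut, Stmn1 and Ecm1 had ratios between 0.750 and 0.958 in that gate. In the macrophage gate Vegfa had a ratio of 0.469.

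**Figure D5:**
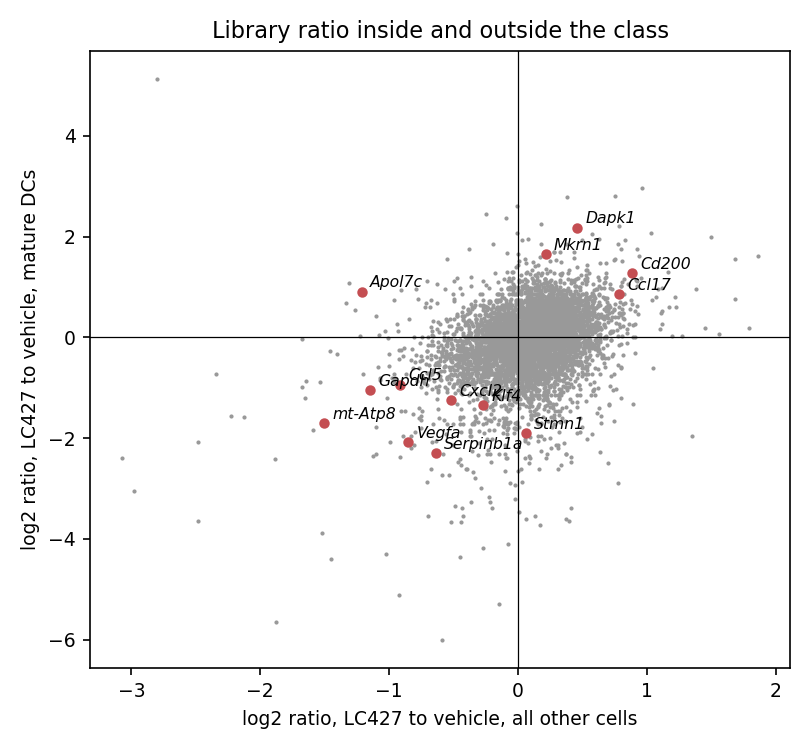
Log2 ratio of CPM, LC427 to vehicle, in the members (vertical) against all other cells (horizontal) for 5965 genes, 1 point a gene. Ccl5, Gapdh and mt-Atp8 lie at similar values on both axes, Apol7c is higher in members and lower outside, and Stmn1 is lower in members with a value near 0 outside.

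By role, the secreted chemokines come first. Ccl5 (chr11:83525778-83530518), which attracts T cells, monocytes and NK cells, stood at 4882 CPM in the vehicle library and 2551 CPM in the LC427 library, a ratio of 0.522 (95% interval 0.489 to 0.558). It was detected in 77.5% of vehicle members (95% interval 70 to 83.9) and 63.9% of LC427 members (95% interval 55.5 to 71.7) after thinning, against 12.3% and 9.29% of macrophage gate cells. The ratio in all other cells was 0.529, close to that in members. Of the 12 chemokine genes measured, 1 was higher by 1.5-fold or more and 6 were lower, where 12.4% and 18% of all measured genes were. Their median log2 ratio was -0.50, beside -0.41 in all other cells. Without the deep barcodes the median was 0.01: Cxcl1, a neutrophil attractant, went from 0.197 to 0.744 and the monocyte attractant Ccl2 from 0.365 to 1.03. Cxcl2 kept its lower value, at 1057 CPM in the vehicle library and 444 CPM in the LC427 library, 0.42 (95% interval 0.359 to 0.49), and 0.385 without them, beside 0.696. Cxcl9, which attracts T cells through CXCR3, stood at 325 CPM in the vehicle library and 326 CPM in the LC427 library, with a ratio of 1 (95% interval 0.816 to 1.23). Of 8 cytokine genes measured, 1 was higher, Ebi3 (39.9 CPM in the vehicle library and 72.2 CPM in the LC427 library, 1.81 (95% interval 1.08 to 3.03)), a subunit of interleukins 27 and 35. Il6 was among the 2 lower, on 32 and 6 UMIs (0.34 (95% interval 0.116 to 0.824)).

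For surface ligands, the maturation list was close to even, with 0 of 11 measured genes higher by 1.5-fold and 2 lower. Of all measured genes 12.4% were higher and 18% lower. The median log2 ratio of the list was 0.10, or -0.05 without the deep barcodes. Cd80 had a ratio of 1.33 (95% interval 0.96 to 1.83) beside 1.13 and Cd86 of 1.27 (95% interval 0.953 to 1.67) beside 1.1, and both intervals include 1. Cd40, through which helper T cells license dendritic cells, stood at 219.9 CPM in the vehicle library and 256 CPM in the LC427 library, 1.16 (95% interval 0.915 to 1.48) beside 0.908. Cd83 had a ratio of 1.29 (95% interval 1.13 to 1.47) beside 0.693 in all other cells. The 2 lower genes rested on few UMIs: Cd70, the ligand of CD27, stood at 52 CPM in the vehicle library and 17.5 CPM in the LC427 library, 0.337 (95% interval 0.137 to 0.725), and Tnfsf4, the OX40 ligand, at 44.7 CPM in the vehicle library and 24.1 CPM in the LC427 library, 0.539 (95% interval 0.248 to 1.08). In the regulatory list 2 of 13 were higher, Cd200 and, on 14 and 13 UMIs, Vsir, and none was lower. The share higher is near that of all genes. Cd274 had a ratio of 1.42 (95% interval 1.13 to 1.77), or 1.28 without the deep barcodes, beside 1.06. Pdcd1lg2, the other ligand of PD-1, was near even at 79.8 CPM in the vehicle library and 81 CPM in the LC427 library, 1.02 (95% interval 0.66 to 1.54). Ido1 had 3 and 1 UMIs and Il10 1 and 0, too few for a ratio to be read.

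For receptors and signalling, genes of the response to interleukin-4 and related cytokines leaned higher: 4 of 9 were higher by 1.5-fold or more and 1 was lower. Of all measured genes 12.4% were higher and 18% lower. The median log2 ratio was 0.51, or 0.38 without the deep barcodes, beside 0.17 in all other cells and -0.05 for all genes in members. The median of the list was 0.39 in the macrophage gate and 0.016 in the conventional DC gate. Ccl17, described above, was among the higher genes. Il4ra, the receptor chain shared by interleukins 4 and 13, stood at 93 CPM in the vehicle library and 155 CPM in the LC427 library, 1.67 (95% interval 1.19 to 2.34) beside 1.09. Il13ra1 had a ratio of 1.73 (95% interval 0.887 to 3.35) and Stat6, the transcription factor they activate, of 1.33 (95% interval 0.821 to 2.13), and the lower gene was Cish, a feedback inhibitor, at 0.513 (95% interval 0.268 to 0.923). The list was put together with earlier results of these cells known, so its direction is no independent evidence. The NF-kB list had 1 of 20 higher and 1 lower, with a median of 0.05. The higher one was Map3k14, the kinase NIK that starts the RelB arm, at 112 CPM in the vehicle library and 195 CPM in the LC427 library, 1.73 (95% interval 1.28 to 2.34) beside 1.28. Rel had a ratio of 1.35 (95% interval 1.18 to 1.53) beside 0.912. In the migration list 2 of 19 were higher and 1 lower, so the share higher was near that of all genes. Cxcr4, the CXCL12 receptor, stood at 65.3 CPM in the vehicle library and 142 CPM in the LC427 library, 2.18 (95% interval 1.5 to 3.19) beside 0.95, but in a similar share of thinned cells, 8.61% and 9.72%. Coro1a, an actin regulator, had a ratio of 1.68 (95% interval 1.41 to 2) beside 1.36.

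With all members counted, class II and type I interferon genes had medians above 0 between the libraries, while the class I and interferon gamma medians were near 0. Without the deep barcodes the interferon gamma median was also above 0. Of 13 class II genes 3 were higher and none lower, where 12.4% and 18% of all measured genes were. Their median was 0.31 beside 0.24 in all other cells, and 0.16 without the deep barcodes, which is below the value in all other cells. H2-Ab1 had a ratio of 1.42 (95% interval 1.31 to 1.55) beside 1.33, and Cd74, the invariant chain, of 0.946 (95% interval 0.895 to 0.999) beside 0.892. After thinning, H2-Aa was found in 56.3% of vehicle members (95% interval 48 to 64.3) and 74.3% of LC427 members (95% interval 66.4 to 81.2), against 47.8% and 57.6% of the macrophage gate and 87.8% and 90.3% of the conventional DC gate. Class I genes were even, with 1 of 20 higher and 1 lower; several are near-identical paralogues whose reads the counting may have split. In the interferon gamma list 4 of 17 were higher and none lower, with a median of 0.01, or 0.28 without the deep barcodes, beside 0.17 in all other cells. Gbp5, a guanylate-binding protein, stood at 50.8 CPM in the vehicle library and 116 CPM in the LC427 library, 2.29 (95% interval 1.5 to 3.51) beside 1.54. Of the type I list only 7 of 19 genes had enough UMIs, with a median of 0.59 beside 0.15, of which 4 were higher, Stat2 (2.24 (95% interval 1.21 to 4.19), beside 1.43), Isg15 (1.51 (95% interval 1.11 to 2.03), beside 1.08), Oasl1 and Irf7.

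Among genes of lineage, uptake and survival, Klf4, a transcription factor needed by a branch of cDC2 cells, was lower at 227 CPM in the vehicle library and 89.8 CPM in the LC427 library, 0.395 (95% interval 0.275 to 0.556), and 0.418 without the deep barcodes, beside 0.828. It was found in 10.6% and 6.25% of thinned members against 29.5% and 23.3% of thinned macrophage gate cells, so its share in members was below that background. Irf8, which cDC1 cells need, stood at 616 CPM in the vehicle library and 803 CPM in the LC427 library, 1.3 (95% interval 1.14 to 1.49) beside 0.871. Mgl2, a lectin of cDC2 cells, stood at 47.1 CPM in the vehicle library and 92 CPM in the LC427 library, 1.95 (95% interval 1.23 to 3.1) beside 0.676. Apol7c (chr15:77524852-77533316), an apolipoprotein L gene, went opposite ways inside and outside the members: 68.9 CPM in the vehicle library and 129 CPM in the LC427 library, 1.88 (95% interval 1.28 to 2.75), beside 0.432 in all other cells, where it stood at 3.19 and 1.38 CPM. Its UMIs came from 22 and 28 members. In the survival list 3 of 12 were higher and none lower, where 12.4% and 18% of all genes were. Its median was 0.36, or 0.22 without the deep barcodes, beside -0.08. Bcl2a1a, an anti-apoptotic paralogue, had a ratio of 1.52 (95% interval 1.29 to 1.77), while its near-identical copies Bcl2a1b and Bcl2a1d had 0.886 and 1.05, so reads may have been divided among them.

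Cell cycle genes were lower in LC427 members: 9 of 13 by at least 1.5-fold and none higher, where 18% and 12.4% of all measured genes were. The median log2 ratio was -0.86, or -1.11 without the deep barcodes, beside 0.06 in all other cells. The median was -0.35 in the conventional DC gate and 0.0087 in the macrophage gate. The counts behind it are small. A UMI of Mki67, Top2a or Birc5, markers of dividing cells, was found after thinning in 15 of 151 vehicle members, 9.93% (5.67 to 15.9), and in 8 of 144 LC427 members, 5.56% (2.43 to 10.7), and without the deep barcodes in 11 of 146 and 7 of 143. Without thinning the shares were 16.6% and 10.4%. The intervals overlap. In the conventional DC gate the thinned shares were 19.6% and 14.9%, and in the macrophage gate 13.2% and 14.7%, higher than in members in both libraries. The median log2 ratio turned to 0.032 when cells with 2 selecting genes were let in.

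For the target named by the series, Lrba (chr3:86224680-86782692) had 8 UMIs in vehicle and 10 in LC427 members, a ratio of 2.26 (95% interval 0.805 to 6.6), so a difference was not detectable at this depth. Ctla4 (chr1:60887000-60915832) had a UMI in 1 of 151 and 4 of 144 members, below its share in all other cells after thinning (4.81% and 4.17%, against 0% and 0.694% of members). Its RNA in members is not read as expression. Of the 8 measured genes of the list, which holds LRBA's relatives and CTLA4's ligands, 1 was higher and none lower. Of all measured genes 12.4% were higher and 18% lower, so the share higher was near that of all genes. That gene was Wdfy4, a relative of LRBA used by cDC1 cells in cross-presentation, on 9 and 16 UMIs (3.22 (95% interval 1.34 to 8.27)).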

How the data were processed

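Droplet libraries of CD45+ tumour cells, 1 from vehicle and 1 from LC427 treated mice, were analysed. The deposited matrices hold raw UMI counts per gene and barcode, unfiltered, made with Cell Ranger and the GRCm38 (mm10) build; the submitters' processing notes give Cell Ranger 3.0.1 and Seurat 3, and the matrix header names Cell Ranger 4. The authors' deposited cluster tables hold a mean signal per cluster and a log2 fold change of a cluster against other cells; they were used only to find the cluster where a gene was highest. The library totals were 33711726 and 28732435 UMIs.

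The limits on cells were 1000 UMIs, 400 genes and 10% mitochondrial UMIs, the last of which removed 137 vehicle and 12 LC427 barcodes. UMI counts were summed over members and divided by the members' total (CPM). Ratios have exact conditional binomial 95% intervals and shares exact Clopper-Pearson intervals; both cover counting error alone, and are too narrow where UMIs cluster in few cells. A count of 0 stood at 3 counts. The comparisons used Python 3.11.15, numpy 2.4.6, scipy 1.17.1 and scanpy 1.11.5, and the interval code was tested on simulated data. With 1 library a group no test was made. The members and gene lists were chosen with earlier results of these data known.

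Genes were named between libraries where they reached 50 CPM in a library and 20 UMIs in all, were not below the empty droplets (10 to 100 UMIs) of the library where they were higher, and had no cell with over 25% of the UMIs and a ratio at least 1.5-fold from 1, up to 12 each way by the interval bound nearest to 1. Against other cells, the 15 with the highest smaller ratio were named, at 100 CPM or more in both libraries. Others come from the lists, and Apol7c and Klf4 were singled out from theirs after their values were seen. Scrublet called 0 doublets in both libraries, which was taken as a failed threshold, so doublets were kept. Leaving out the highest scores was an alternative. It took out 220 of 5245 vehicle and 320 of 6328 LC427 cells, among them 20 of 151 and 16 of 144 members. Members were thus a larger part of the highest scores than of all cells, and whether they are doublets was not tested. Gene positions are from GENCODE vM21 by gene ID, with 55 of 55 matched. All alternatives are listed in the closing section, and those on the deep barcodes and on thinning after selection were added after seeing the data.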

Additional observations from a re-analysis of the deposited data

Results flagged for a closer look

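Barcodes with at least 3 selecting genes that also carried a Cd3d, Cd3e or Ncr1 UMI were kept out of the members and of every comparison. They made up 0.664% of LC427 cells, 42 barcodes (0.479 to 0.896), and 0.458% of vehicle cells, 24 barcodes (0.293 to 0.680), so the intervals overlap. They were deeper than the members, with medians of 8304 and 4877 UMIs. Ccr7 had a UMI in 95.8% of them in vehicle and 97.6% in LC427, and Cst3 in 100% and 97.6%. Ctla4 had a UMI in 58.3% and 57.1%, Il2ra in 37.5% and 50%, and Foxp3, the factor that defines regulatory T cells, in 12.5% and 16.7%. Whether these are pairs of cells in 1 droplet or single cells was not tested.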

How the results depend on the processing

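The ratio of the members' share, LC427 to vehicle, lay between 0.651 and 0.881 over every alternative run, inside the interval of the main value. No paired analysis was possible because each treatment has 1 library. The number of genes at least 1.5-fold lower was 672 with at least 4 selecting genes, 657 with at least 5, 661 with Ccr7 required and 688 without the deep barcodes, all fewer than 1074. Thinning each cell before selection gave 468 genes apart, 259 higher and 209 lower, and thinning the members afterwards 570, with 317 higher and 253 lower, so that the higher side then held more genes. A limit of 50 UMIs a gene gave 724, with 309 higher and 415 lower, and a limit of 1 UMI gave 7088, with 3993 higher and 3095 lower; both change the genes measured.

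Letting in cells with 2 selecting genes turned the medians of the type I interferon list to -0.030, of the class II list to -0.25, of the interferon gamma list to -0.45 and of the cell cycle list to 0.032, and the log2 ratios of Ifitm1 to -0.17, Dut to 0.53, Stmn1 to 0.066 and Ranbp1 to 0.090; those cells were deep, with little Cst3. Without the 25% of members richest in macrophage markers the type I interferon median was -0.32, and the cause was not tested. Thinning before selection put Stmn1 at 1.33 and Vkorc1 at 0.012, on few UMIs. Of the 18 settings each, Cd200, Mkrn1, Dapk1, Pdcd4, Arap2, Nol7 and Serpinb1a stayed at least 1.5-fold apart in the same direction in 18, Ccl17 in 14 and Ecm1 in 12. The median of the type 2 response list was above 0 in 16 of 16 settings and that of the survival list in 18 of 18, while NF-kB was above 0 in 10 of 18 and maturation in 8 of 18.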

Other observations

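Genes for uptake and sensing had a summed level of 532 CPM in vehicle and 611 CPM in LC427 members, against 777 and 734 CPM in the conventional DC gate. Of 15 with enough UMIs, 3 were at least 2-fold lower than in that gate and 1, Apol7c, higher, where 7.43% and 6.18% of all genes were. Tlr2, a sensor of bacterial lipoproteins, stood at 52 CPM in the vehicle library and 24.1 CPM in the LC427 library, against 102 and 107 CPM in that gate and 201 and 192 CPM in the macrophage gate. Between the libraries 3 of 9 were at least 1.5-fold higher and 2 lower, where 12.4% and 18% of all measured genes were. Of 8 measured dendritic cell genes shared by cDC1 and cDC2, 2 were higher and none lower, where 12.4% and 18% of all measured genes were. Their median log2 ratio was 0.30, beside 0.26 in all other cells. It was 0.66 in the conventional DC gate and 0.63 in the macrophage gate, above the value in members. Itgax, which encodes CD11c, stood at 25.4 CPM in the vehicle library and 56.9 CPM in the LC427 library, 2.24 (95% interval 1.21 to 4.19). The cDC1 and cDC2 lists had medians of 0.33 and 0.58 over 6 and 7 genes, beside 0.20 and -0.13 in all other cells. Without the deep barcodes the medians were 0.14 for the shared genes and 0.27 and 0.43 for the cDC1 and cDC2 lists.

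Markers of T cells, B cells, neutrophils and tumour cells were found in few members, and those of NK cells and plasmacytoid dendritic cells in more. A UMI of 16 T cell markers, which do not include the genes of the rule, was found in 20 of 151 and 17 of 144 members, of 10 NK cell markers in 41 of 151 and 38 of 144, of 6 B cell markers in 6 of 151 and 6 of 144, of 8 neutrophil markers in 10 of 151 and 6 of 144 and of 10 tumour markers in 8 of 151 and 3 of 144. A UMI of 9 plasmacytoid dendritic cell markers was found in 83 of 151 and 60 of 144. That list holds Bst2 and Tcf4, which other cells also express. The rule took out barcodes with a Cd3d, Cd3e or Ncr1 UMI, so the T and NK cell counts are partly set by it. Summed NK cell markers stood at 138 and 147 CPM in vehicle and LC427 members, against 542 and 390 CPM in empty droplets. They stood at 288 and 200 CPM in the conventional DC gate and 46.9 and 62.8 CPM in the macrophage gate. Summed plasmacytoid markers stood at 303 and 366 CPM in members, against 637 and 618 and 479 and 451 CPM in those gates. The summed level of macrophage markers was lower in LC427 members, with 6 of 16 at least 1.5-fold lower and 1 higher, where 18% and 12.4% of all measured genes were. The median of the list was -0.36, beside -0.60 in all other cells.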
